A study of Mus musculus with 4 samples.

Results

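A group of 10 genes whose products mark megakaryocytes and platelets was followed in sorted mouse fetal liver LSK cells (lineage-negative, Sca-1+ and c-Kit+), a fraction rich in hematopoietic stem and progenitor cells. The genes were *Itga2b*, *Itgb3*, *Gp1ba*, *Gp5*, *Gp6*, *Gp9*, *Pf4*, *Ppbp*, *Vwf* and *Treml1*. They were chosen by name, and each matched 1 row of the 39186 genes in the deposited table. The RNA of 2 Pich-KO and of 2 Pich-WT samples was sequenced to ask how loss of PICH, a DNA translocase of the SNF2 family, changes the LSK transcriptome. All 4 samples were C57BL/6 fetal liver. The Pich-KO allele is a germline 10-bp deletion made with TALENs at the start of the second exon of the X-linked gene, so every cell of the embryo carries it, and Pich-WT embryos carry the intact gene. Cells for sorting in the study came from embryos of day E14.5, and the lineage stain covered CD4, CD8, Gr-1, B220 and Ter119, which leaves out CD41, the product of *Itga2b*. No source says whether a sample was 1 embryo or a pool, so the p-values below measure only the spread between these samples. The values are normalized counts, that is, reads on a gene divided by a size factor for each sample, and depth was 14703215 to 20933919 reads on genes.

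Megakaryocytes arise from hematopoietic stem and progenitor cells under thrombopoietin and shed platelets into the blood. Platelets bind von Willebrand factor through the GPIb-IX-V complex and collagen through GPVI, and they aggregate through the fibrinogen receptor, integrin αIIbβ3. Their α-granules store the chemokines PF4 and PPBP and von Willebrand factor. Transcripts of some of these genes are also found in stem cells with a bias toward the platelet lineage, and CD41 is also carried by early embryonic blood progenitors.

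*Pf4* and *Ppbp* are neighbours on chromosome 5 and encode related chemokines, and the sequences before their starts are shown because these neighbours differ below in how far the 2 Pich-WT libraries lie apart. That of *Gp5* is shown for comparison. The sequences are the 250 bases before the RefSeq transcription start in GRCm38.p6, 5′ to 3′ on the strand of the gene, at chr5:90772185-90772434, chr5:90768268-90768517 and chr16:30310782-30311031. Capitals mark a GATA motif (AGATAA or TGATAA) or an ETS motif (CAGGAA or CCGGAA) on either strand.
Pf4: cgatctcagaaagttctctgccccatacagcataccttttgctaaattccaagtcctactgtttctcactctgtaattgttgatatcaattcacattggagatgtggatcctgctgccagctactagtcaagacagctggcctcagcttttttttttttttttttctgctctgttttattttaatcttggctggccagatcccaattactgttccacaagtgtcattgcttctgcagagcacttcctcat
Ppbp: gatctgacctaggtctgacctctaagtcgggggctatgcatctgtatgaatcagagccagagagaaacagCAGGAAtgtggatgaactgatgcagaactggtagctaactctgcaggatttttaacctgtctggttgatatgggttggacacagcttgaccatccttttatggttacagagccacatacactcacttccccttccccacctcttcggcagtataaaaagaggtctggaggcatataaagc
Gp5: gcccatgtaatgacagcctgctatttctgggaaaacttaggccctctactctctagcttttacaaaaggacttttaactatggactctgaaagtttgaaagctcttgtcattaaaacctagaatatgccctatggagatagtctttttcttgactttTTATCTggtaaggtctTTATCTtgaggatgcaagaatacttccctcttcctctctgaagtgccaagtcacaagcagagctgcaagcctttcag
Of the 10 genes, 8 had a RefSeq window, which leaves out *Itgb3* and *Vwf*. A GATA motif stood in 3 of the 8 windows, those of *Gp1ba*, *Gp5* and *Gp6*, and in 16.6% of all 32851 windows. An ETS motif stood in 4 of the 8, those of *Itga2b*, *Gp1ba*, *Treml1* and *Ppbp*, and in 35.1% of all windows. The RefSeq start of *Itga2b* lay 239 bases inside the gene model given below, so its window is mostly within that model. Both kinds were present in 1 of the 8 windows, that of *Gp1ba*, and in 5.07% of all windows. The window of *Ppbp* held CAGGAA from 180 bases before the start. That of *Gp5* held AGATAA on the reverse strand from 93 and from 77 bases before the start. The window of *Pf4* held neither motif. A match describes letters only and was not tested as a binding site.

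The libraries were compared before the genes. *Ercc6l*, the gene of PICH, had normalized counts of 1142 and 1232 in Pich-KO against 772 and 661 in Pich-WT. Its transcripts still count with a 10-bp deletion, so this level does not check the genotype labels. Reads on 4 Y-linked genes (*Ddx3y*, *Uty*, *Kdm5d*, *Eif2s3y*) were absent from Pich-WT library 2, with 0 reads, and numbered 1607 to 2848 elsewhere, while *Xist* had 699 reads there and 4 to 13 elsewhere, so the 2 Pich-WT libraries differ in the sex of the embryos and the 2 Pich-KO libraries do not. The LSK markers *Kit* and *Ly6a* (Sca-1) were present in each library, with *Kit* at 4447 and 2773 in Pich-KO against 2328 and 2513 in Pich-WT (adjusted p = 0.114, limma) and *Ly6a*, a marker of the gate, at 3586 and 2978 against 901 and 1061, higher in Pich-KO with no overlap (log2 fold change 1.74, adjusted p = 0.000167, limma). Markers of cells that the gate should remove or that it does not stain for were present too, and their sums are given beside the results.

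A mean of 100 normalized counts was reached by 8 of the 10 members (all but *Gp6* and *Treml1*) and by 32.5% of the genes tested. The members' normalized counts summed to 1481 and 1490 in Pich-KO libraries 1 and 2 and to 5842 and 3399 in Pich-WT libraries 1 and 2, between 0.00892% and 0.0357% of the reads on genes. Per kb of gene model, *Pf4* was the highest in both groups, at 335 ± 83.0 in Pich-KO and 2905 ± 523 in Pich-WT (SD, n = 2), where the LSK markers *Kit* and *Ly6a* were at 272 ± 14.7 and 814 ± 93.8. In Pich-WT it was followed by *Ppbp* (356 ± 401), *Gp9* (311 ± 43.2), *Itga2b* (176 ± 63.3), *Treml1* (80.4 ± 40.0), *Gp5* (68.5 ± 57.0), *Gp1ba* (67.7 ± 40.5) and *Itgb3* (40.7 ± 25.9). *Vwf* at 12.1 ± 3.78 and *Gp6* at 4.28 ± 4.62 normalized counts per kb were the lowest. Taking neighbours in this order as distinct where means ± 1 SD did not overlap, *Pf4* over *Ppbp* and *Gp9* over *Itga2b* were distinct in Pich-WT and the others were not. In Pich-KO the order was *Pf4*, *Gp9* (160.3 ± 31.1), *Itga2b* (94.2 ± 8.51), *Ppbp* (58.0 ± 26.4), *Treml1* (44.9 ± 2.997), *Gp5* (37.0 ± 1.79), *Itgb3* (36.1 ± 3.61), *Gp1ba* (23.9 ± 5.96), *Vwf* (5.99 ± 1.84) and *Gp6* (1.41 ± 0.0921). There *Gp5* and *Itgb3* were not distinct, nor were *Ppbp* and *Treml1*, and the other neighbours were.

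**Figure D1:**
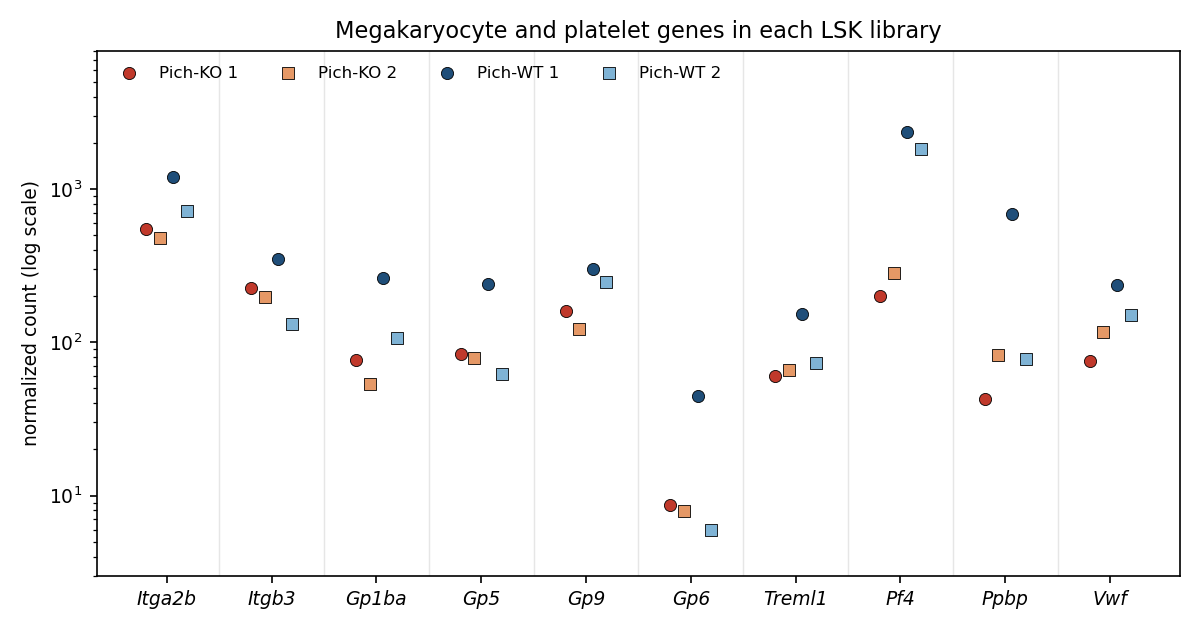
Normalized count (log axis) of the 10 genes in each library, with circles for library 1 and squares for library 2 of each group and no averaging. Pich-WT library 1 is above Pich-WT library 2 for each of the 10 genes, and for *Pf4* both Pich-WT libraries (2362 and 1828) are far above both Pich-KO libraries (199.6 and 284).

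The question for each gene was whether its level differed between Pich-KO and Pich-WT LSK cells. *Pf4*, *Gp9* and *Itga2b* were lower in Pich-KO and passed the test, and no member was higher. All 10 had a negative log2 fold change, although *Itgb3* turned positive (0.12) with upper-quartile scaling in edgeR, the median was -0.95 against 0.02 over all genes tested, and 7 did not pass. The test was limma on log2(normalized count + 1), with a mean-variance trend, for the 32428 genes whose mean reached 1, at a Benjamini-Hochberg adjusted p of 0.05. Fold changes on this scale understate those of low genes. By this rule 9.6% of all genes tested (3113) were lower and 7.58% (2459) were higher, a split that upper-quartile scaling in edgeR turned to 2425 lower and 4871 higher. Among the 10807 tested genes with a mean in the members' range, 16.8 to 1168 normalized counts, 21.3% were lower and 11.1% higher, so 3 of 10 members is read against these shares. Both Pich-KO values lay below both Pich-WT values in 6 of the 10, against 27.2% of all genes tested and 41.6% of those in the range, and above them in 0, against 28.9% of all genes tested. With 2 against 2 libraries, an exact two-sided permutation test of a single gene cannot go below p = 0.333, so the adjusted values depend on the variance pooled across genes. In sorted bulk cells, fewer cells of a type and less RNA per cell cannot be told apart.

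Among the granule proteins, *Pf4* (ENSMUSG00000029373, chromosome 5, 90772435 to 90773383, plus strand, GRCm38), which encodes platelet factor 4, had normalized counts of 199.6 and 284 in Pich-KO against 2362 and 1828 in Pich-WT. Both Pich-KO libraries were low and both Pich-WT libraries high, with no overlap. Its Pich-WT mean was 8.66-fold the Pich-KO mean, and the log2 fold change was -3.12 with a standard error of 0.21 (limma adjusted p = 8.14e-05). It stayed at -2.93 without Pich-WT library 1 and at -3.30 without Pich-WT library 2. In the limma fit without the mean-variance trend, *Pf4* had an adjusted p of 0.0852. Several marker lists described below were lower too, against 9.6% of all genes tested. These were 12 of 12 macrophage (median log2 fold change -5.02), 12 of 12 endothelial (-3.75), 10 of 11 erythroid (-1.81) and 6 of 10 hepatoblast markers (-0.82), with 0 higher. Markers of mast cells and basophils were higher in 3 of 7 and those of neutrophils in 3 of 9, with 0 lower, against 7.58% of all genes tested higher. Which cells of the sorted fraction gave the *Pf4* reads was not tested.

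*Ppbp* (ENSMUSG00000029372, chromosome 5, 90768518 to 90770063, plus strand), which encodes pro-platelet basic protein, had normalized counts of 42.5 and 83.0 in Pich-KO against 692 and 78 in Pich-WT. Only Pich-WT library 1 was high, and Pich-WT library 2 lay between the Pich-KO libraries. A log2 fold change of -1.95 (standard error 0.86) did not pass (adjusted p = 0.182, limma). On the recovered reads the adjusted p was 0.0203 by edgeR (quasi-likelihood, TMM) and 0.132 by DESeq2, and by edgeR without Pich-WT library 1 it was 0.799. In limma the change was -0.39 without Pich-WT library 1 and -3.52 without Pich-WT library 2. The ratio of *Pf4* to *Ppbp* per kb was 7.05 and 5.14 in Pich-KO and 5.12 in Pich-WT library 1, but 35.2 in Pich-WT library 2. The ratio was thus similar in 3 libraries and higher in Pich-WT library 2. The chemokine genes beside them were near the limit of detection, with *Cxcl5* at no more than 2 reads and *Cxcl3* at 7.82 to 11 normalized counts in the 4 libraries (adjusted p = 0.959, limma).

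*Vwf* (ENSMUSG00000001930, chromosome 6, 125546774 to 125686679, plus strand) encodes von Willebrand factor, which tethers platelets and is also made by endothelial cells. It had normalized counts of 75.3 and 117 in Pich-KO against 237 and 151 in Pich-WT. The groups did not overlap, with a 2.02-fold higher mean in Pich-WT. Its log2 fold change of -1.003 (standard error 0.32) did not pass by limma (adjusted p = 0.0699). On the recovered reads the adjusted p was 0.0401 by edgeR (quasi-likelihood, TMM) and 0.0223 by DESeq2. It was 0.146 with upper-quartile scaling in edgeR. The limma change was -0.68 without Pich-WT library 1 and -1.33 without Pich-WT library 2.

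The GPIb-IX-V complex, the receptor for von Willebrand factor, was represented by *Gp1ba*, *Gp5* and *Gp9*, and only *Gp9* passed the test. *Gp9* (ENSMUSG00000030054, chromosome 6, 87778072 to 87779768, plus strand), the glycoprotein IX subunit, had normalized counts of 160.3 and 122 in Pich-KO against 301 and 247 in Pich-WT. Both Pich-WT libraries were above both Pich-KO libraries. The Pich-WT mean was 1.94-fold the Pich-KO mean. On the log2 scale the change was -0.96 (standard error 0.23, limma adjusted p = 0.0241). It was -0.82 without Pich-WT library 1 and -1.10 without Pich-WT library 2. In limma the call was lost without a filter on the mean (adjusted p = 0.0556) and without the variance trend (0.181). With upper-quartile scaling in edgeR the adjusted p was 0.066.

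*Gp1ba* (ENSMUSG00000050675, chromosome 11, 70639122 to 70642036, plus strand) encodes the chain that binds von Willebrand factor. It had normalized counts of 76.3 and 53.4 in Pich-KO against 262 and 106 in Pich-WT. The groups did not overlap, but the Pich-WT libraries differed 2.47-fold. Its change of -1.37 on the log2 scale (standard error 0.42) had an adjusted p of 0.0659 by limma, 0.0176 by edgeR and 0.00377 by DESeq2. The adjusted p was 0.0505 with upper-quartile scaling in edgeR. In limma the change was -0.72 without Pich-WT library 1 and -2.02 without Pich-WT library 2. *Gp5* (ENSMUSG00000047953, chromosome 16, 30307685 to 30310779, minus strand), the glycoprotein V subunit, had 84.0 and 78.4 in Pich-KO against 239 and 62 in Pich-WT. Pich-WT library 2 was the lowest of the 4 libraries and Pich-WT library 1 the highest. *Gp5* had a log2 fold change of -0.58 (standard error 0.54, limma adjusted p = 0.552), which was 0.38 without Pich-WT library 1. The remaining subunit gene, *Gp1bb*, had at most 3.13 normalized counts in a library. In the annotation 91.1% of its exon bases are shared with *Sept5*, so its reads cannot be assigned with certainty.

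The fibrinogen receptor, integrin αIIbβ3, is encoded by *Itga2b* and *Itgb3*. *Itga2b* (ENSMUSG00000034664, chromosome 11, 102453297 to 102470122, minus strand), which encodes CD41, had normalized counts of 546 and 481 in Pich-KO against 1204 and 716 in Pich-WT. The groups did not overlap, and the mean was 1.87-fold higher in Pich-WT. At -0.86 on the log2 scale (standard error 0.24, limma adjusted p = 0.0431) it passed close to the threshold. The call was lost with a pseudocount of 0.1 (adjusted p = 0.0886), with no filter on the mean (0.118) and after upper-quartile scaling in edgeR (0.0569). Without Pich-WT library 1 the log2 fold change was -0.48, and edgeR then gave an adjusted p of 0.282.

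*Itgb3* (ENSMUSG00000020689, chromosome 11, 104608000 to 104670476, plus strand), the partner chain, which other cells also use, had normalized counts of 228 and 198 in Pich-KO against 348 and 132 in Pich-WT. Both Pich-KO libraries lay between the Pich-WT libraries. With all libraries the log2 fold change was -0.01 (standard error 0.40, limma adjusted p = 0.985). It was 0.68 without Pich-WT library 1 and -0.71 without Pich-WT library 2, so its sign depended on the library kept. The ratio of *Itgb3* to *Itga2b* per kb was 0.386 and 0.380 in Pich-KO against 0.267 and 0.170 in Pich-WT.

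Neither of the remaining receptors, *Gp6* and *Treml1*, passed the test. *Gp6* (ENSMUSG00000078810, chromosome 7, 4363965 to 4397744, minus strand), which encodes the collagen receptor GPVI, had normalized counts of 8.73 and 7.96 in Pich-KO against 44.5 and 6 in Pich-WT, from 6 to 57 reads a library. Pich-WT library 1 alone was high. *Gp6* stood at -0.94 on the log2 scale (standard error 0.84, limma adjusted p = 0.533) and at 0.42 without Pich-WT library 1. *Treml1* (ENSMUSG00000023993, chromosome 17, 48359916 to 48367176, plus strand), which encodes the α-granule receptor TLT-1, had 60.0 and 65.9 normalized counts in Pich-KO against 152 and 73 in Pich-WT. The groups did not overlap, but Pich-WT library 2 was close to the Pich-KO libraries. A log2 fold change of -0.74 (standard error 0.37) did not pass (limma adjusted p = 0.243).

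**Figure D2:**
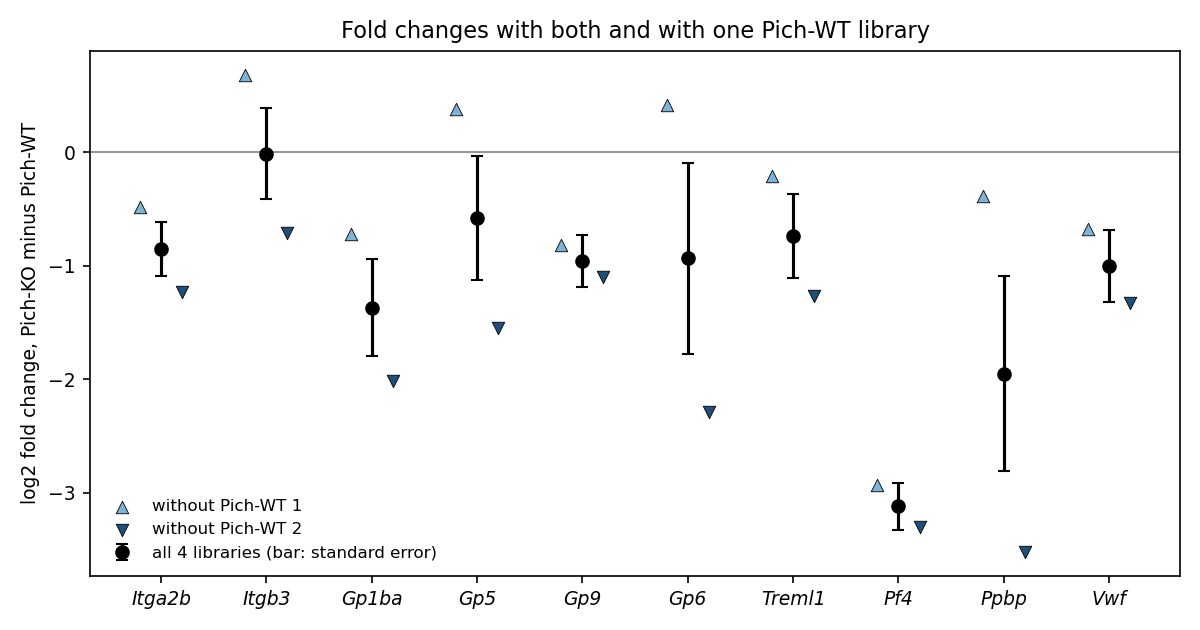
Log2 fold change of each gene, Pich-KO minus Pich-WT, with all 4 libraries (black points, bars are standard errors from limma) and without either Pich-WT library (triangles). *Pf4* is far below 0 in each fit, while *Itgb3*, *Gp5* and *Gp6* are above 0 without Pich-WT library 1 and below 0 without Pich-WT library 2.

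The members differed between the Pich-WT libraries themselves. Each of the 10 was higher in Pich-WT library 1 than in library 2, against 52.1% of all genes tested and 58.3% of genes in the members' range. The median difference was 1.17 on the log2 scale, against 0.06 over genes in that range. *Ppbp* differed most, 8.88-fold, followed by *Gp6* (7.42-fold) and *Gp5* (3.86-fold). *Gp9* (1.22-fold) and *Pf4* (1.29-fold) differed least. Of the genes in the range, 0.0555% differed further in this direction than *Ppbp* and 0.0648% further than *Gp6*, whereas 22.0% differed further than *Gp9* and 16.3% further than *Pf4*. Between the Pich-KO libraries no such order was seen, with 6 of 10 higher in library 1 and a median difference of 0.11.

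The median log2 fold change of the members was -0.43 without Pich-WT library 1 and -1.44 without Pich-WT library 2. Summed without *Pf4*, the other 9 reached 1282 and 1206 in Pich-KO, 3480 in Pich-WT library 1 and 1571 in Pich-WT library 2. edgeR called 6 of the 10 lower with all libraries, where it called 10.5% of all genes lower, and DESeq2 called 5, against 9.79%. Leaving out a library in edgeR gave 5 without Pich-WT library 2 (4.81% of all genes) and 1, *Pf4*, without Pich-WT library 1 (3.53% of all genes). It gave 8 without Pich-KO library 1 (13.9%) and 7 without Pich-KO library 2 (11.9%). With limma no gene of the table passed once any library was left out, although 5757 to 8599 genes had an unadjusted p under 0.05. The sex of the embryo cannot be told apart from the other differences between the Pich-WT libraries. In the fits without Pich-WT library 1, only library 2 stands for Pich-WT, and it had no reads on the Y-linked genes. Sex and genotype thus cannot be told apart in those fits. Without Pich-WT library 2, all libraries left had such reads.

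**Figure D3:**
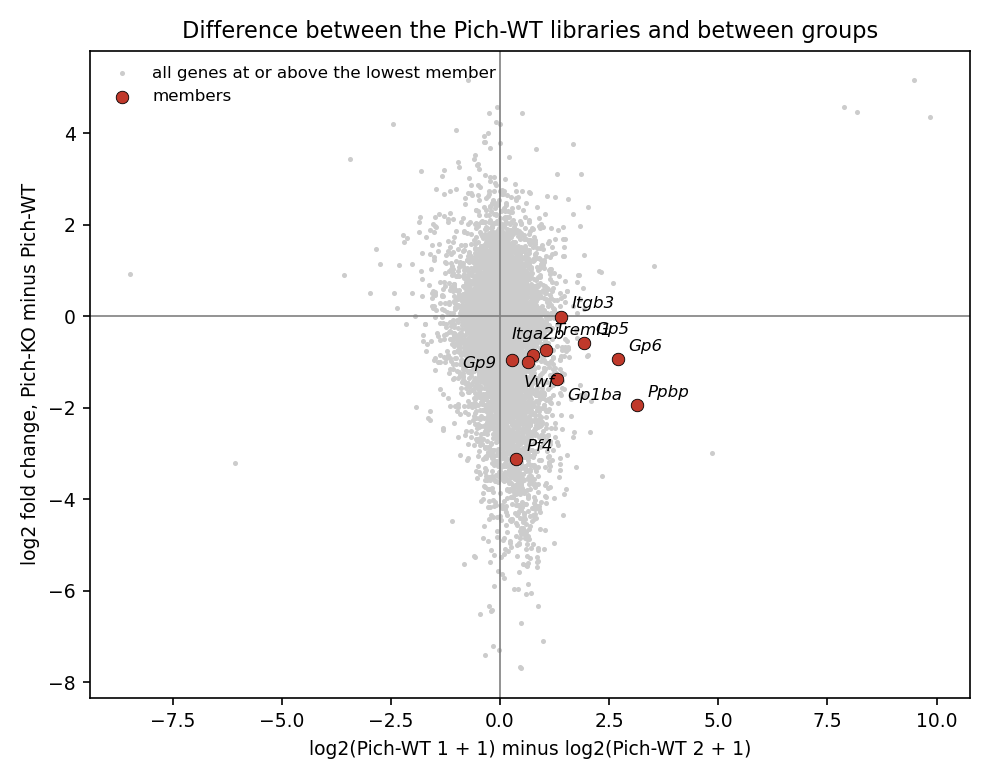
Log2 difference between the Pich-WT libraries (x axis) against the log2 fold change between groups (y axis) for the members (red) and for all genes with a mean at or above that of the lowest member (grey). Every member is to the right of 0, and *Pf4* and *Gp9* lie below 0 on the y axis with a small difference between the Pich-WT libraries, 0.37 and 0.28. Both axes use the Pich-WT values, so the measures are not independent.

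A further 115 genes of megakaryocytes and platelets were read from the same fit in 6 lists by role, which were chosen with earlier results of these data known. Of these, 52 (45.2%, against 9.6% of all genes tested) were lower and 13 (11.3%, against 7.58%) higher in Pich-KO, and their median log2 fold change was -0.65. The shares over all genes include many genes at low levels, and only 5 of the 115 lay below the members' range, with 56 within it and 54 above. Of the 56 within it, 25 (44.6%) were lower and 3 (5.36%) higher, against 21.3% and 11.1% of all genes in the range. No such share was taken for genes above the range, so the calls among the 54 there have no share at their level. In the Pich-WT libraries 75 of the 115 were higher in Pich-WT library 1 than in library 2, 65.2% against 52.1% of all genes tested, with a median difference of 0.07. edgeR called 57 of the 115 lower with all libraries (10.5% of all genes), 19 without Pich-WT library 1 (3.53%) and 33 without Pich-WT library 2 (4.81%). The higher counts were 13 (8.02% of all genes), 9 (2.1%) and 8 (2%). Within the members' range edgeR called 11 of 56 lower (19.6%, against 8.08% of all genes in the range) without Pich-WT library 1 and 18 (32.1%, against 11.1%) without Pich-WT library 2. Without Pich-WT library 1 the lower counts were 6 of 22 receptors, 2 of 21 granule genes, 6 of 20 signalling genes, 1 of 21 transcription factors, 1 of 11 thrombopoietin pathway genes and 3 of 20 cytoskeletal genes, against the 3.53% of all genes and 8.08% of those in the range. The single calls among transcription factors and thrombopoietin pathway genes and the 2 among granule genes are near these shares.

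Of 22 other surface receptors, 12 were lower (54.5%, against 9.6% of all genes tested and 21.3% of those in the members' range). The median was -1.13. By limma 0 were higher, also at an unadjusted p under 0.05, and edgeR with upper-quartile scaling called 1, *P2rx1*. *Cd36*, a receptor for thrombospondin and fatty acids that macrophages and endothelial cells also carry, had normalized counts of 184 and 95.5 in Pich-KO against 3632 and 2775 in Pich-WT (log2 fold change -4.57, adjusted p = 7.17e-05, limma). *Esam*, an adhesion molecule of platelets, endothelium and stem cells, had 353 and 131 against 3556 and 2641 (-3.83, adjusted p = 0.00053). The smallest changes that passed were those of the tetraspanins *Cd9* (-0.99) and *Cd63* (-0.97). *Selp*, which encodes P-selectin of the α-granule membrane, had 67.6 and 47.7 against 95.3 and 136 and did not pass (-0.99, adjusted p = 0.0714).

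Of 21 granule and secretion genes, 6 were lower, 1 was higher and the median was -0.17. The 6 make 28.6%, against 9.6% of all genes tested, and are near the 21.3% of those in the members' range. *Sparc*, which encodes osteonectin, had normalized counts of 635 and 317 in Pich-KO against 10550.3 and 6330 in Pich-WT (log2 fold change -4.18, adjusted p = 0.000162, limma). *Clu*, clusterin, had 96.0 and 95.5 against 691 and 374 (-2.40, adjusted p = 0.00108). *Tgfb1* had the smallest fall that passed (-0.46). *Nbeal2*, which is needed to form α-granules, was the gene that rose, from 277 and 275 in Pich-WT to 795 and 724 in Pich-KO (1.45, adjusted p = 0.000589).

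Of 20 signalling and lipid mediator genes, 11 were lower (55%, against 9.6% of all genes tested) and 1 higher (5%, against 7.58%). The median was -0.67. *Tbxas1*, thromboxane synthase, had normalized counts of 132 and 87.5 in Pich-KO against 1198 and 1112 in Pich-WT (log2 fold change -3.41, adjusted p = 7.47e-05, limma). *Gng11*, a G protein subunit, had 99.3 and 86.4 against 723 and 522 (-2.72). *Tln1*, the talin that activates integrins, rose from 1670.1 and 1594 to 4703 and 3976 (1.41, adjusted p = 0.00018). *Rap1b*, a small GTPase upstream of it, had the smallest fall that passed (-0.56).

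The transcription factors moved both ways. Of 21, 10 were lower (47.6%, against 9.6% of all genes tested) and 5 higher (23.8%, against 7.58%), with a median of -0.57. *Ets1* had normalized counts of 436 and 246 in Pich-KO against 2679 and 1812 in Pich-WT (log2 fold change -2.75, adjusted p = 0.000508, limma), and *Ldb1*, a partner of the GATA factors, fell by 1.06. *Etv6* rose from 631 and 591 to 2130.1 and 1755 (1.66, adjusted p = 0.000218). *Runx1*, a factor required for megakaryocyte maturation, rose from 854 and 1053 to 2905 and 2331 (1.46, adjusted p = 0.000589). *Gata1* had 883 and 928 against 1282 and 1059 (-0.36, adjusted p = 0.132), and *Nfe2*, the factor of platelet release, had 2225 and 1923 against 2541 and 2502 (-0.29, adjusted p = 0.137). Neither passed.

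In the thrombopoietin pathway 6 of 11 genes were lower (54.5%, against 9.6% of all genes tested) and 1 was higher (9.09%, against 7.58%). The median was -0.65. *Jak2*, a tyrosine kinase of cytokine signalling, had normalized counts of 234 and 160.3 in Pich-KO against 1314 and 887 in Pich-WT (log2 fold change -2.47, adjusted p = 0.000459, limma), and *Socs3*, an inhibitor of that signalling, had 188 and 211 against 832 and 427 (-1.58, adjusted p = 0.00826). *Cbl*, a ubiquitin ligase, was higher (0.59, adjusted p = 0.016). *Shc1* had the smallest fall that passed (-0.37). *Thpo* itself, made mainly by hepatocytes, had 3 to 8.73 normalized counts in the 4 libraries (adjusted p = 0.741).

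Of 20 cytoskeletal genes of platelet formation, 7 were lower (35%, against 9.6% of all genes tested) and 5 higher (25%, against 7.58%). The median was -0.36. *Actn1*, which encodes an α-actinin, had normalized counts of 115 and 159 in Pich-KO against 1847 and 2059 in Pich-WT (log2 fold change -3.84, adjusted p = 3.04e-05, limma), and *Parvb*, a partner of integrin-linked kinase, fell by 2.37. *Flna*, the filamin that links GPIb to actin, rose from 1168 and 1233 to 4117 and 3846 (1.73, adjusted p = 6.01e-05). *Tuba8* rose from 115 and 71 to 345 and 322 (1.87, adjusted p = 0.0023). *Tubb1*, the β-tubulin of the platelet rim, had 67.6 and 44.3 in Pich-KO against 153 and 53 in Pich-WT (-0.71, adjusted p = 0.412). As in *Gp5* and *Ppbp*, only its Pich-WT library 1 value was high.

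**Figure D4:**
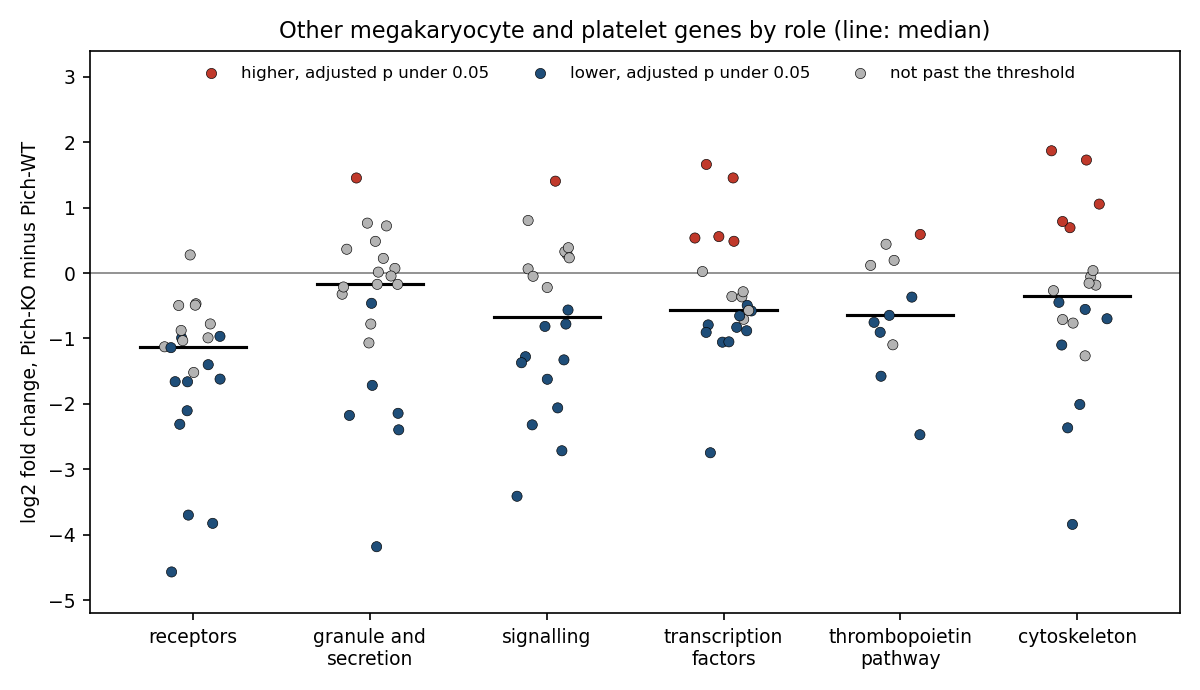
Log2 fold change of the 115 further genes in the 6 lists by role, each point 1 gene, coloured by whether it passed the limma test, with a line at the median of each list. Receptors have no gene that passed as higher, while transcription factors and cytoskeletal genes have 5 each.

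Macrophage, endothelial, erythroid and hepatoblast markers mostly passed as lower in Pich-KO, where 9.6% of all genes tested did. Of the members 3 of 10 passed as lower, and no mast cell, basophil or neutrophil marker did. All 12 macrophage markers were lower in Pich-KO (median log2 fold change -5.02), with summed normalized counts of 9149 and 8023 in Pich-KO against 59362 and 60902 in Pich-WT. Among these markers *Vsig4*, a low gene, had 2.18 and 0 against 55.5 and 43, and *Timd4* had 13.1 and 22.7 against 1475 and 1688. *Csf1r* was still at 7268 and 6111 in Pich-KO, against 16306 and 17259. All 12 endothelial markers were lower (median -3.75, sums 8119 and 5370 against 56919 and 40236), with *Cdh5* at 127 and 71.6 against 2122 and 1673. Of 11 erythroid markers tested, 10 were lower (median -1.81, sums 34294 and 37113 against 201100 and 142123), and *Alas2* had 539 and 471 against 5106 and 3506. Without Pich-WT library 1, edgeR called 12 of 12 macrophage, 11 of 12 endothelial and 7 of 11 erythroid markers lower.

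Of 10 hepatoblast markers, 6 were lower (60%, against 9.6% of all genes tested), with a median of -0.82 and sums of 3899 and 3219 against 5768 and 5181. Mast cell and basophil markers were higher in 3 of 7 (42.9%, against 7.58% of all genes tested). Their median was 1.28 and their sums 1287 and 1794 against 411 and 512, with *Tpsab1* and *Cma1* at or near 0 in each library. Neutrophil granule markers were higher in 3 of 9 (33.3%, against 7.58%), with a median of 0.31 and sums of 64513 and 121501 against 16683 and 19389. *Mpo*, with 54647 and 90492 against 10351 and 12533, and *Prtn3* made up most of these sums. Without this pair the sums were 3030 and 15739 against 4864 and 5249, overlapping between the groups, and 4 of the other 7 had a negative log2 fold change. Each of the 9 was higher in Pich-KO library 2 than in library 1. The LSK markers were lower in 4 of 9 (44.4%, against 9.6%) and higher in 1, *Ly6a* (11.1%, against 7.58%). They summed to 27053 and 17525 against 22021 and 22933. The part of the cell types marked by these lists, macrophages included, in the changes of the members, *Pf4* among them, was not tested.

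The marker lists differed in how they moved between the Pich-WT libraries. The summed members were 1.72-fold higher in Pich-WT library 1 than in library 2, the endothelial markers 1.41-fold with 12 of 12 higher, and the erythroid markers 1.41-fold with 11 of 11 higher. The macrophage markers were 0.975-fold, with 5 of 12 higher. *Pf4* was 7.56-fold higher in Pich-WT library 2 alone than the Pich-KO mean, and in that library *Gp5*, *Gp6* and *Itgb3* were at 0.763, 0.719 and 0.62 of the Pich-KO mean.

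**Figure D5:**
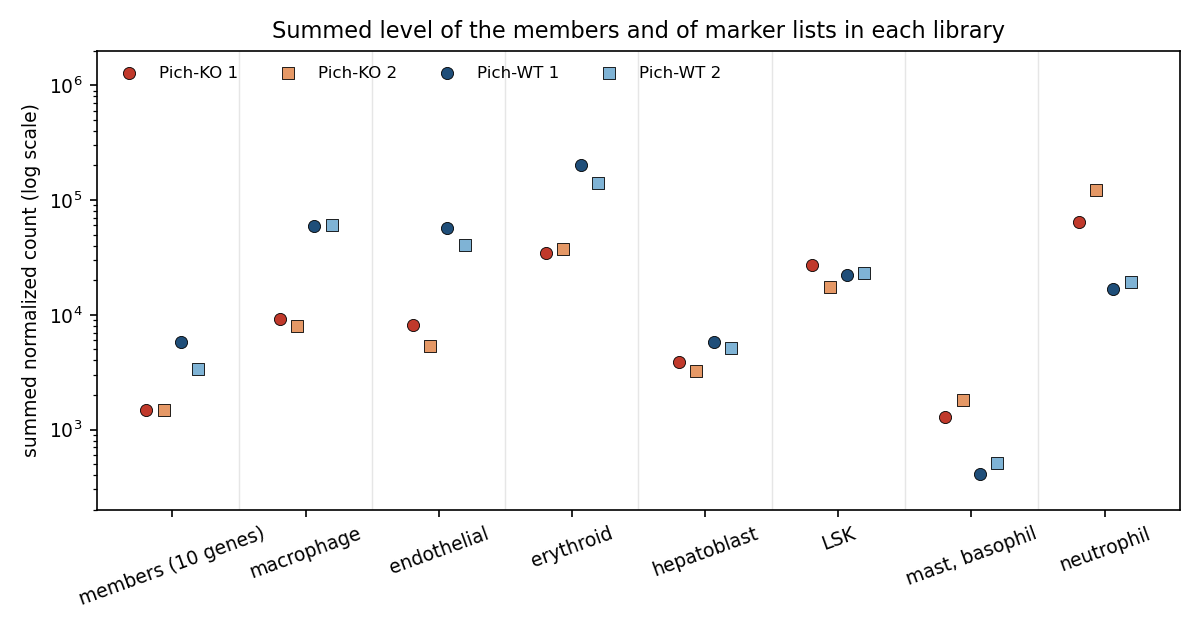
Summed normalized count (log axis) of the 10 members and of 7 marker lists in each library, with circles for library 1 and squares for library 2 of each group. Macrophage, endothelial, erythroid and hepatoblast sums are lower in both Pich-KO libraries than in both Pich-WT libraries, mast cell and neutrophil sums are higher, and LSK sums overlap.

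Genes outside all lists with the most similar profile were found by the distance between centred log2 values over the 4 libraries, among 10544 genes with a mean of at least 100. Nearest to *Itga2b* were *Trim24* (distance 0.11), *Ube3c* (0.12) and *Maml1* (0.13). *Epn2* (0.18), *Sqor* (0.21) and *Fbxo33* (0.21) lay nearest to *Pf4*, and *Tmem144* (0.17), *Bahcc1* (0.20) and *Sept10* (0.21) to *Vwf*. With 4 libraries in 2 groups these distances describe the profiles only.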

How the data were processed

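RNA of sorted fetal liver LSK cells was sequenced after a TruSeq RNA library preparation, with 2 Pich-KO and 2 Pich-WT samples grouped by their titles. The authors deposited 1 table whose sample values are a signal, read counts per gene divided by a size factor for each sample, on the scale of Pich-WT library 2. The submitters' processing notes name Bowtie 0.12.2 and the builds mm8 and mm9, while starts and ends equalled those of GENCODE M21 for 97.8% of 39163 matched genes, so coordinates are given on GRCm38. The counter, the annotation and strand use are not given in the sources used here. The authors' log2 fold changes and p-values, also deposited, and their group means were not used.

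Values were whole multiples of 1 read (tolerance 0.01 reads) for 100% of genes in each library, which gave reads back. limma 3.58.1 (R 4.3.3) was run on log2(value + 1) over 32428 genes, with the mean-variance trend and Benjamini-Hochberg adjustment. The fits were run on simulated counts with the same dispersion for every gene and no further difference between replicates. That run cannot show how the fits behave with the spread of these libraries. Alternatives were a pseudocount of 0.1, no filter, at least 10 reads in every sample, a replicate block, no trend, edgeR 4.0.16 (TMM or upper quartile), DESeq2 1.42.0, an absolute log2 fold change of at least 1, and leaving out each library. edgeR without each library was added after seeing the data. A lone remaining library is assumed to vary like the other group. Replicates of a group differed beyond sampling noise (chi-square per degree of freedom 17.7 in Pich-KO and 9.54 in Pich-WT).

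The members and the gene lists were chosen with earlier results of these data known. Named genes are the 10 members, in each further list the 2 with the highest and the 2 with the lowest log2 fold change among those that passed, *Thpo*, *Gata1*, *Nfe2*, *Gp1bb*, *Tubb1* and *Selp*, marker genes, and the 3 nearest profiles. The rule also fixed 1 other gene by name, which is not reported here. *Cxcl5*, *Cxcl3*, *P2rx1* and *Plek* were named after their values were seen. The erythroid marker *Ahsp* had no row under that name and was not analysed here. Promoter windows are from RefSeq.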

Additional observations from a re-analysis of the deposited data

How the results depend on the processing

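Of the 10 members, 3 were lower in Pich-KO and 0 higher with all 4 libraries. The lower count was 1 without a filter on the mean, where 2326 of 39186 genes were lower. It was 1 with an absolute log2 fold change of at least 1, where 2241 of 32428 genes were lower. With at least 10 reads in every sample it was 5 of 9 tested, where 3135 of 13924 genes were lower. It was 5 by DESeq2 (9.79% of all genes) and 6 by edgeR with TMM (10.5%, and 23.2% of genes in the members' range). Without the variance trend it was 0, where 7377 genes, 2 of them members, had an unadjusted p under 0.05. Without 1 library, limma gave 0 members, 0 of all genes and 0 of the further 115 genes in either direction, with 1 to 9 members at an unadjusted p under 0.05. In edgeR without 1 library the members' median log2 fold change ranged from -1.44 (without Pich-WT library 2) to -0.40 (without Pich-WT library 1). The cause of the spread between fits was not tested.

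Over all genes, 2459 were higher and 3113 lower. Without the trend both counts were 0, and with an absolute log2 fold change of at least 1 the higher count was 901. edgeR gave 681 higher and 1146 lower without Pich-WT library 1, and 648 and 1560 without Pich-WT library 2. Of the further 115 genes, 13 higher and 52 lower became 0 and 0 without the trend, and 7 and 32 with the fold limit. edgeR gave 19 lower without Pich-WT library 1, and 8 higher and 33 lower without Pich-WT library 2.

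Upper-quartile scaling moved the median log2 fold change of all genes from 0.02 to 0.32, a shift of the whole table, and then 4871 genes were higher, with 23 of the further 115. Relative to that median the members' median was still negative (-0.70 before it is subtracted). 2 members, *Pf4* and *Ppbp*, passed as lower, as did 2425 of the 32428 genes, and *Itgb3* turned positive (0.12). The replicate numbers share only a number. The correlation of same-numbered deviations was 0.013 over 10544 genes. With the replicate block 6 members were lower, and so were 3874 of the 32428 genes.

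The neutrophil marker median, 0.31 with all libraries, ranged from -1.10 (without Pich-KO library 2) to 1.71 (without Pich-KO library 1) in limma and was -1.14 in edgeR without Pich-KO library 2. *Plek* (0.06) was -0.48 in edgeR without Pich-KO library 1. Depth limits *Gp6*, with 6 to 57 reads a library, and *Gp1bb*, at 4 reads or fewer.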
